A study of Bos taurus with 12 samples.

Results

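A set of 10 immediate early genes was followed in the lining of the bovine uterus over the days after an antiseptic was put into it. FOS, FOSB, FOSL1, FOSL2, JUN, JUNB, EGR1, ATF3, IER3 and MYC were chosen by name, and every probe that carries one of these names in the scanner files was taken. This gave 26 probes of the 10 genes, out of 43653 probes and 25459 gene names on the array. Of the 26 probes, 24 were well above background on at least 3 of the 12 arrays and were tested. The other 2, 1 of FOSB and 1 of FOSL1, were well above background on no array and have no test.

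The antiseptic was povidone-iodine (PVP-I), which releases iodine, and it was put into the uterus of 3 cows. Biopsy forceps took pieces of endometrium on days 2, 7 and 14 and on day 0. The same 3 animals, labelled as fertile, gave all samples, so that each day has 3 arrays and each array is 1 cow on 1 day. The horns of the uterus were sampled alternately, so that the horn, the time, the stage of the oestrous cycle (which the labels do not give), the earlier biopsies and the antiseptic cannot be told apart between days. No untreated cow is among the samples, and the labels do not say whether the day 0 biopsy came before the antiseptic. Breed and age of the cows are not given in the sources used here.

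Immediate early genes are transcribed within minutes of a signal reaching the cell, before any new protein is made. FOS and JUN proteins pair through a leucine zipper to form AP-1, a transcription factor that reads growth, stress and inflammatory signals. ATF3 belongs to the same zipper family, EGR1 is a zinc finger factor, MYC pairs with MAX to drive growth genes, and IER3 is a short-lived regulator of survival and inflammatory signalling. Many of their messages are short-lived, with copies of the pentamer ATTTA among the elements known for this.

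The probes are 60-base oligonucleotides, each with a place on build Btau_3.1 in the scanner files, and 5 of them show the part of these genes by which the proteins meet their partners and DNA. In the first 3, capitals mark leucine codons of the open frame that follow each other at a spacing of 7 codons, the repeat from which the leucine zipper takes its name.
FOS (chr10:88961882-88961941, + strand): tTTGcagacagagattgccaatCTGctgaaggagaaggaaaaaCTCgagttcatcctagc
FOSL1 (chr29:45906142-45906201, - strand): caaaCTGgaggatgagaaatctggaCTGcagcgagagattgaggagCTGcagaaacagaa
MYC (chr14:12151710-12151769, - strand): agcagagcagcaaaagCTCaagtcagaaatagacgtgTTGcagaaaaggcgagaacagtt
The FOSB probe below lies in the basic region, the stretch that touches DNA, and is 1 of the 2 probes that were well above background nowhere.
FOSB (chr18:52859536-52859595, + strand): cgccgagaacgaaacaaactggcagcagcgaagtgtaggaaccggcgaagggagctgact
The FOSL2 probe, printed with the FOS probe again, shows how alike these relatives are: capitals mark the bases that match in the best ungapped alignment of any 2 probes of different FOS relatives over at least 30 bases, 24 of 32 bases (75%).
FOS (chr10:88961882-88961941, + strand): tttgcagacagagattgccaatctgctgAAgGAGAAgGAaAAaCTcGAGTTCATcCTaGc
FOSL2 (chr11:73422231-73422290, - strand): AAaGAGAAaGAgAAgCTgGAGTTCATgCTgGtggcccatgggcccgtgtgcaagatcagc

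No run of more than 10 identical bases is shared by any 2 probes of different genes among the 26. The pentamer ATTTA stood in 6 of the 26 probes (23.1%), against 3253 of 43653 probes on the array (7.45%). Its reverse complement TAAAT stood in 4 of the 26 (15.4%), against 3790 of all probes (8.68%). The 6 probes belong to 6 genes, FOS, FOSB, FOSL1, JUNB, IER3 and MYC, and the 3 windows below are those whose probes stand for FOS, FOSL1 and IER3 in what follows, with the first ATTTA in capitals.
FOS (within chr10:88963194-88963253, + strand): tgaatgaaaaATTTAagcattgttt
FOSL1 (within chr29:45905216-45905275, - strand): ggcagctgctATTTAttttcctaa
IER3 (within chr23:28208331-28208390, + strand): tcctaaatatATTTAtgtgtat
These are matches of letters in the probe, and no transcript was tested for its stability.

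Values below are log2 processed intensities with each array's own 75th percentile subtracted, so that 0 is the level of the 75th percentile probe, and they are called log2 signal. They compare 1 probe between arrays, never 2 probes with each other, because probes differ in how brightly they bind. Where a gene has several probes, the one with the highest mean signal stands for it. Each change is the mean over the 3 cows with its standard error from limma, fitted to all 12 arrays with the cow as a block, and a change is called where its adjusted p over all 33539 tested probes was under 0.05.

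The share of probes well above background was 71.3 to 76.0% on 11 arrays and 63.2% on the day 2 array of cow 3. Saturation touched 0 probes, and having only 3 arrays a day limits the precision. The deposited value table and the links between files and samples name different samples for 10 of the 12 arrays, and the names of the table were used. Each table column matched 1 file at a correlation of at least 0.999998, and the next best file reached at most 0.52. Under the names of the table, 2, 12 and 6 probes set the arrays of cows 1, 2 and 3 at least 3 log2 units apart from all others, and under the file links 0 did. Within a cow, the day of each array rests on the table alone. Under the file links, 0 of the 24 probes passed in any comparison below, where 0 to 0.707% of all probes were called. Read by the table, each slide holds 1 cow, with its days in order of position, so that cow and slide, and day and position, cannot be told apart. Of the tested markers, 13 of 13 of epithelium and 9 of 9 of stroma were well above background on all 12 arrays. So were 8 of 8 smooth muscle and 9 of 9 macrophage markers, and 26486 of the 33539 tested probes. Passing was therefore common, and this check says little about which tissue was sampled.

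Most called changes fell on day 7. On that day 8 of the 24 probes, of 5 genes (FOS, FOSL1, JUNB, ATF3 and IER3), rose against day 0 and 0 fell, where 18.2% of all tested probes were called, 10.3% as higher. On day 2, 1 of 24 probes rose, that of FOSL1, where 2.52% of all probes were called. The FOSL1 probe was well above background on no day 0 array and passed the filter only through later days. Its calls on days 2 and 7 therefore rest on a day 0 signal not well above background. On day 2 an unadjusted p under 0.05 was found for 5 of the 24, against 20.9% of all probes. On day 14 limma called 0 of 24, where 0.131% of all probes were called, and 10 of the 24 had an unadjusted p under 0.05, against 20.6% of all probes. The median change of the 24 probes was 0.74 on day 2, 1.03 on day 7 and 0.91 on day 14 (log2), beside 0.00, 0.04 and 0.05 for all tested probes.

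On day 7 the 3 cows lay wholly above day 0 at 13 of the 24 probes, where 20.8% of all probes did so, and wholly below it at 1. In either direction the groups were apart at 14 of the 24, where 37.9% of all probes were. On day 14 the 3 cows lay wholly above day 0 at 12, where 14.3% of all probes did so. Between later days limma called none of the 24: the count was 0 for day 7 against day 2 (0.486% of all probes called), 0 for day 14 against day 7 (0.146%) and 0 for day 14 against day 2 (0%). An unadjusted p under 0.05 was found there for 7, 10 and 8 of the 24, against 18.2, 18.0 and 12.6% of all probes. The F-test for any difference among the 4 days called 6 of the 24, at FOS, FOSL1 and IER3, where 7.78% of all probes passed. The limit given above for the FOSL1 probe holds for this test too.

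With 2 cows left the day 7 calls were fewer. Without cow 1 and without cow 2, 0 of the 24 passed, in fits that called 0 and 213 of the 33539 probes. Without cow 3, 6 passed, where 18.5% of all probes were called. The changes of the 8 called probes against day 0 stayed between 1.46 and 3.94 in these fits.

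**Figure D1:**
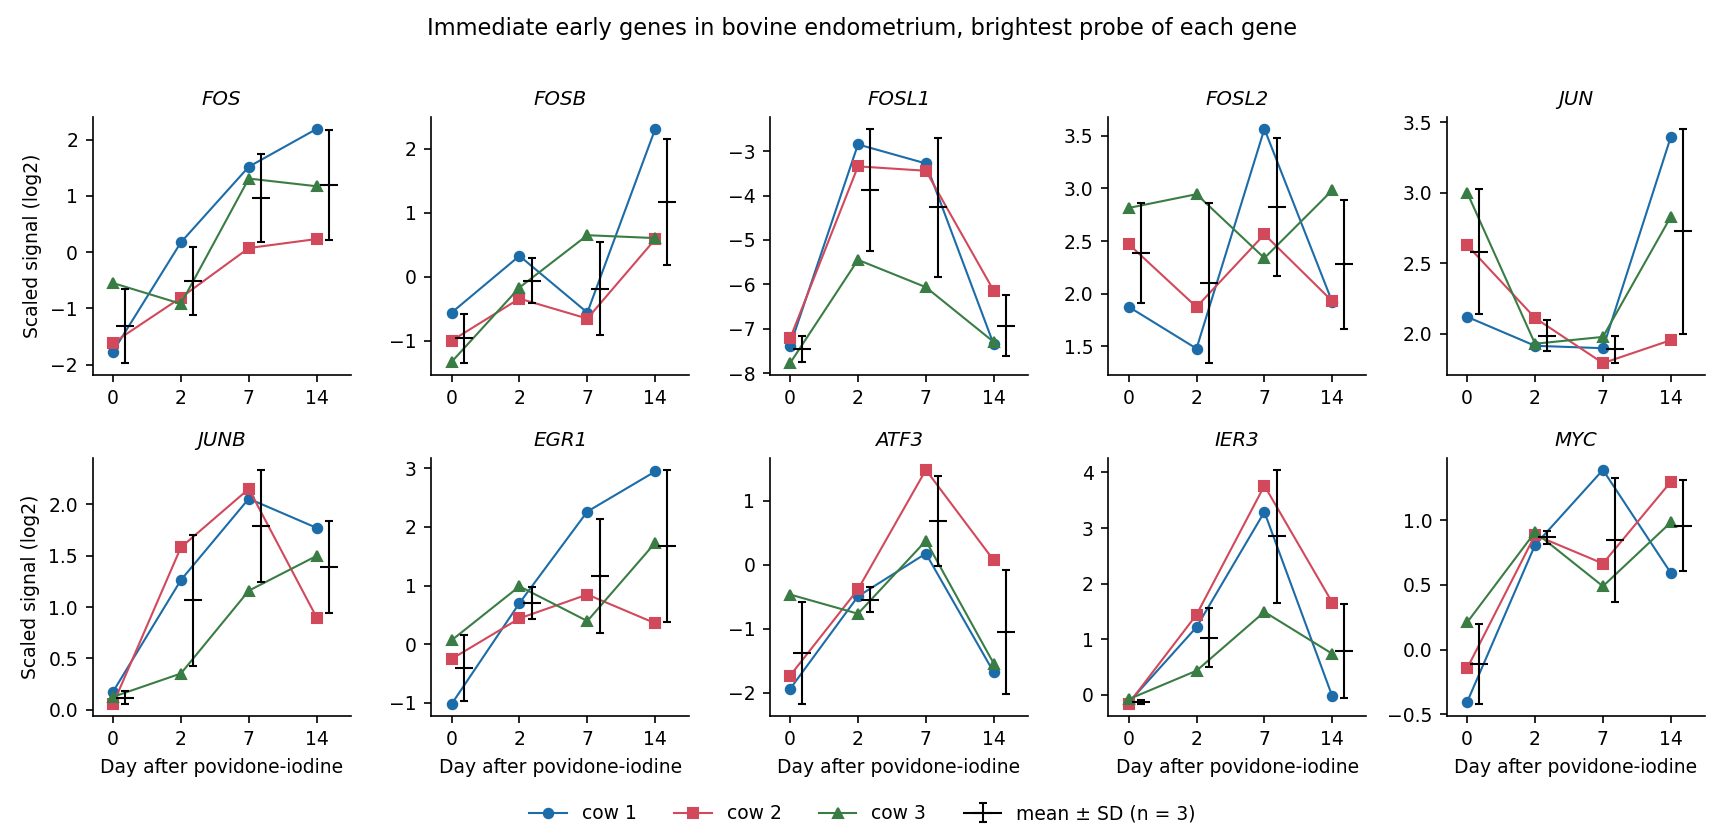
Scaled log2 signal (vertical axis, a scale of its own in each panel) of the brightest probe of each gene against the day after povidone-iodine. Coloured points are single cows, and black marks are the mean ± SD over 3 cows; FOSL1 has its 2 highest means on days 2 and 7, ATF3 and IER3 have their highest mean on day 7, and FOS and EGR1 have theirs on day 14.

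FOS, the partner that gives AP-1 much of its activity, rose on day 7. The probe that starts at base 1990 of its transcript, the brightest of 3, had log2 signals of 1.52, 0.07 and 1.31 in cows 1, 2 and 3 on day 7, against -1.77, -1.61 and -0.55 on day 0. All 3 cows were higher on day 7, and the groups did not overlap. The change was 2.28 ± 0.45 (SE, n = 3 cows, adjusted p = 0.0144, limma), which is 4.84-fold. Both other probes rose as well, by 2.80 ± 0.56 (adjusted p = 0.0151) at base 1385 and by 2.65 ± 0.63 (adjusted p = 0.0253) at base 678, the zipper probe printed above.

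On day 14 FOS had log2 signals of 2.19, 0.23 and 1.17 in cows 1, 2 and 3, against -1.77, -1.61 and -0.55 on day 0. Again the groups did not overlap, and cow 1 was the highest. The change of 2.51 ± 0.45 was as large as on day 7 but its adjusted p was 0.062, and the other probes had 2.83 (0.0702) and 2.88 (0.0782). Fewer probes differed over the whole array on day 14, and the adjustment was stricter there: the unadjusted p was 0.000442 on day 14 and 0.000841 on day 7. With the cow as a random block the adjusted p on day 14 was 0.0482.

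On day 2 FOS was at 0.17, -0.81 and -0.92 in cows 1, 2 and 3, a change of 0.79 ± 0.45 (adjusted p = 0.351). Cow 1 was higher than on day 0 by 1.94, cow 2 by 0.80, and cow 3 lower, with a difference of -0.37. The day 2 array of cow 3 is the one with fewer probes above background, and without it the change was 1.17 (adjusted p = 0.221).

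FOSB, a close relative of FOS, was not called on any day. Its brightest probe (base 3176) had log2 signals of 2.31, 0.58 and 0.60 in cows 1, 2 and 3 on day 14, against -0.564, -1.003 and -1.334 on day 0. The groups did not overlap, and the change was 2.13 ± 0.46 (adjusted p = 0.0768). On day 7 only cow 3 stood well above its own day 0, by 1.98, while cow 1 differed by 0.00 and cow 2 by 0.35. The second tested probe (base 2268) gave smaller values, 0.34, 0.27 and 0.37 on days 2, 7 and 14, and the probes correlated at 0.78 over the 12 arrays with cow means removed.

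FOSL1, also called FRA-1, a FOS relative without the activating end of FOS, was the 1 gene of the 10 called on day 2. Its tested probe (base 1332) had log2 signals of -2.85, -3.34 and -5.45 in cows 1, 2 and 3 on day 2, against -7.38, -7.22 and -7.78 on day 0. On day 7 the cows were at -3.28, -3.44 and -6.06. Both later days lay wholly above day 0, with cow 3 the lowest each time.

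The probe was well above background on no array of day 0, on 2 of 3 on day 2, on 3 of 3 on day 7 and on 1 of 3 on day 14. The day 0 level is therefore not exact. For each day 0 array, the higher of the probe's own signal and that array's lowest signal well above background was taken. Against this level the mean signal was 6.35-fold higher on day 2 and 4.88-fold higher on day 7. These folds are estimates and not strict lower bounds, and the day 2 mean includes an array not well above background. The fitted changes were 3.58 ± 0.55 on day 2 (adjusted p = 0.0224) and 3.20 ± 0.55 on day 7 (adjusted p = 0.00953), each higher in 3 of 3 cows. The probe passed the filter only through the later days, so that both tests set them against a day 0 signal not well above background.

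By day 14 FOSL1 was at -7.36, -6.14 and -7.30 in cows 1, 2 and 3, close to the day 0 values, and the groups overlapped. Day 14 lay wholly below day 7, with a fitted change of -2.67 ± 0.55 (adjusted p = 0.0774), whose size is not exact because 2 of the 3 day 14 arrays were not well above background. The day 2 call was lost without the cow block (adjusted p = 0.0646), in a fit of these 2 days alone (0.0591), and without cow 1 (0.267) or cow 2 (0.298). With normexp background correction and quantile normalisation together, the change was 1.09 on day 2 (0.061) and 0.93 on day 7 (0.0393). Without the day 2 array of cow 3 the day 2 change was 3.95 (0.0376).

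FOSL2, also called FRA-2, had 6 probes, and with the cow as a fixed block 0 were called on any day. Its brightest probe (base 5281) had log2 signals of 3.57, 2.56 and 2.34 in cows 1, 2 and 3 on day 7, against 1.87, 2.47 and 2.81 on day 0. Cow 1 was higher and cow 3 lower, and the groups overlapped. Only the probe at base 1609 separated the days, with -1.29, -2.18 and -2.26 on day 7, against -3.21, -2.96 and -3.02 on day 0. Its change was 1.15 ± 0.37 (adjusted p = 0.0638), and with the cow as a random block it passed (0.0403). The other 5 probes had day 7 changes between -0.25 and 0.65, and pairs of FOSL2 probes correlated at 0.40 to 0.96.

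JUN, the partner that binds FOS in AP-1, had negative changes on days 2 and 7, neither of them called. Its brightest probe (base 1801) had log2 signals of 1.90, 1.79 and 1.98 in cows 1, 2 and 3 on day 7, against 2.12, 2.63 and 3.00 on day 0. Each cow was lower on day 7, and the groups did not overlap. The change was -0.69 ± 0.34 (adjusted p = 0.187), and on day 2 it was -0.60 ± 0.34 (adjusted p = 0.356). The probes at bases 1184 and 341 had day 7 changes of -0.65 and -0.32 (adjusted p = 0.277 and 0.673), and their groups overlapped. On day 7 cow 1 was higher by 0.25 at base 1184, and cow 3 by 0.84 at base 341. Their day 2 changes were -0.67 and -0.25, with cow 3 higher by 0.49 at base 341.

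On day 14 JUN was at 3.40, 1.95 and 2.83 in cows 1, 2 and 3, a change from day 0 of 0.14 ± 0.34 (adjusted p = 0.84). Against day 7 the 3 JUN probes had changes of 0.84, 1.09 and 1.23, higher in 3 of 3 cows at each probe, with adjusted p of 0.252, 0.211 and 0.234. The groups overlapped at all 3.

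JUNB, a JUN relative that competes with it for partners, rose on day 7. Its single probe had log2 signals of 2.06, 2.15 and 1.16 in cows 1, 2 and 3 on day 7, against 0.18, 0.05 and 0.12 on day 0. The day 0 values had an SD of 0.06, and every later array was above them. The day 7 change was 1.67 ± 0.33 (adjusted p = 0.0149), which is 3.19-fold. On day 14 the cows were at 1.772, 0.898 and 1.499 (change 1.27 ± 0.33, adjusted p = 0.102), and on day 2 at 1.26, 1.58 and 0.35 (change 0.95 ± 0.33, adjusted p = 0.163).

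ATF3, a zipper factor of the stress response that can pair with JUN, rose on day 7 as well. Its single probe had log2 signals of 0.18, 1.48 and 0.37 in cows 1, 2 and 3 on day 7, against -1.94, -1.73 and -0.46 on day 0. The groups did not overlap, and cow 2 was the highest. The change was 2.06 ± 0.49 (adjusted p = 0.0257), which is 4.16-fold, and its own differences ran from 0.84 in cow 3 to 3.22 in cow 2.

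On day 14 ATF3 was at -1.68, 0.07 and -1.54 in cows 1, 2 and 3, which overlapped day 0 (change 0.33 ± 0.49, adjusted p = 0.733). Day 14 lay wholly below day 7, at a change of -1.73 ± 0.49 (adjusted p = 0.141). A fit of days 7 and 0 alone put the day 7 adjusted p at 0.0798.

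IER3, which is induced by stress and by inflammatory signals, had the day 7 change with the smallest adjusted p of the 24 probes. Its brightest probe (base 682) had log2 signals of 3.29, 3.76 and 1.49 in cows 1, 2 and 3 on day 7, against -0.14, -0.16 and -0.08 on day 0. The groups were far apart, with cow 3 the lowest on day 7. The change was 2.98 ± 0.48 (adjusted p = 0.00816), which is 7.87-fold, and the second probe (base 783) gave 2.90 ± 0.50 (adjusted p = 0.00998).

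On day 2 IER3 was at 1.22, 1.44 and 0.43 in cows 1, 2 and 3, wholly above day 0 (change 1.16 ± 0.48, adjusted p = 0.221). On day 14 it was at -0.03, 1.66 and 0.74, also above day 0 in each cow (change 0.92 ± 0.48, adjusted p = 0.319). Set against day 7, day 14 was lower in each cow, by -2.06 ± 0.48 (adjusted p = 0.0986), though the groups overlapped. In a fit of days 7 and 0 alone the second probe had an adjusted p of 0.0565 on day 7.

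EGR1, which is switched on by growth factor and serum signals through the same upstream factors as FOS, was not called. Its brightest probe (base 3007) had log2 signals of 2.95, 0.36 and 1.73 in cows 1, 2 and 3 on day 14, against -1.02, -0.25 and 0.07 on day 0. The groups did not overlap, but the cows differed widely, with a change of 3.97 in cow 1 and 0.61 in cow 2. The mean change was 2.08 ± 0.61 (adjusted p = 0.125). On day 7 it was 1.57 ± 0.61 (adjusted p = 0.108) and on day 2 it was 1.11 ± 0.61 (adjusted p = 0.339), each higher in 3 of 3 cows. The probe at base 1946 gave 0.88, 1.51 and 2.13 on days 2, 7 and 14 (adjusted p = 0.364, 0.0741 and 0.0891). The probe at base 331 was well above background on no day 0 array. With day 0 set in the same way as for FOSL1, it was 2.23-fold higher on day 14, which is an estimate.

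MYC, which drives genes of growth and ribosome making, had changes near 1 log2 unit on all 3 later days, and none was called. Its brightest probe (base 1845) started at log2 signals of -0.40, -0.14 and 0.21 in cows 1, 2 and 3 on day 0. The same cows had 0.81, 0.89 and 0.91 on day 2. They had 1.39, 0.67 and 0.49 on day 7, while day 14 gave 0.59, 1.30 and 0.98. Every later array was above every day 0 array. The changes from day 0 on days 2, 7 and 14 were 0.98 ± 0.29 (adjusted p = 0.114), 0.96 ± 0.29 (adjusted p = 0.054) and 1.07 ± 0.29 (adjusted p = 0.109), so that MYC missed the threshold on each day. On day 7 it passed without the cow block (0.0427), with the cow as a random block (0.0318), after normexp and quantile normalisation (0.041) and among probes well above background on all 12 arrays (0.0427). The second probe, the zipper probe printed above, gave 0.71, 0.75 and 1.09.

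**Figure D2:**
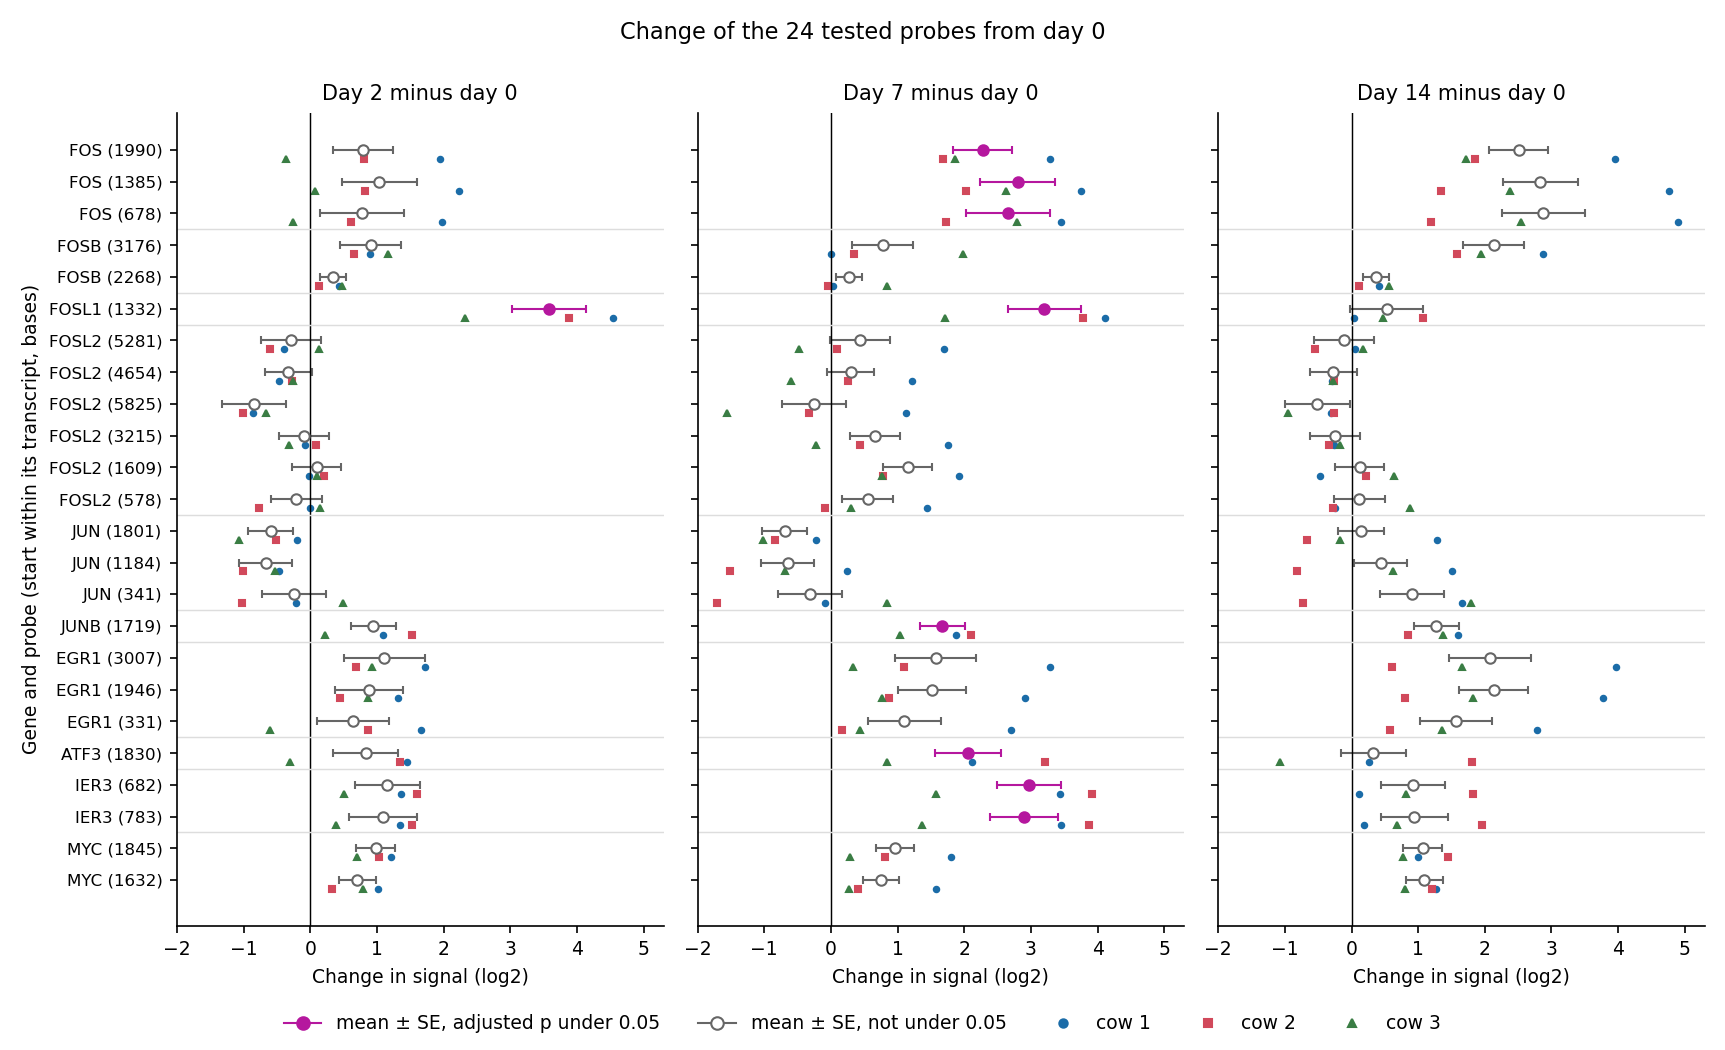
Change in log2 signal from day 0 (horizontal axis) for the 24 tested probes, labelled by gene and by start within the transcript, on days 2, 7 and 14. Large points are means ± SE from limma, filled where the adjusted p was under 0.05, and small points below them are the 3 cows; 1 probe is filled on day 2, 8 on day 7 and 0 on day 14.

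The likeness of the genes' time courses was measured as Pearson's r over the 12 arrays after each cow's mean was removed. These values are descriptions, since all genes share the same arrays, cows and scaling. ATF3 and IER3 were most alike (r = 0.89), followed by FOS and EGR1 (0.82) and FOS and JUNB (0.82). JUNB was about as like EGR1 (0.76) as IER3 (0.76). FOSL1 was like IER3 (0.74) and ATF3 (0.72), and its r with FOS was 0.18, but FOSL1 was well above background on 6 of the 12 arrays only. JUN had negative values with FOSL1 (-0.70), ATF3 (-0.61) and IER3 (-0.61).

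The order of the cows differed between genes. On day 14 cow 1 had the highest signal of the 3 at all 3 FOS probes, at all 3 EGR1 probes, at both tested FOSB probes and at all 3 JUN probes. On days 7 and 14 cow 2 had the highest signal of ATF3 and at both IER3 probes. Cow 3 had the lowest FOSL1 signal on days 2 and 7, and the lowest JUNB and IER3 signals there too.

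**Figure D3:**
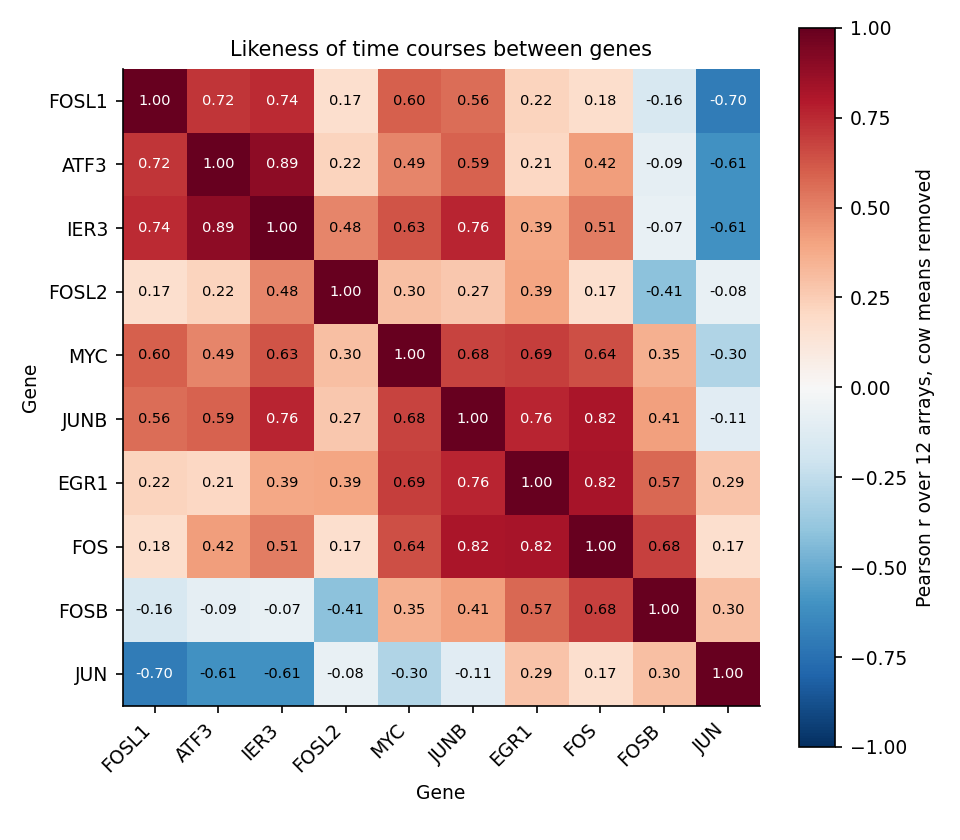
Pearson's r between the 10 genes over 12 arrays, with each cow's mean removed (colour scale from -1 to 1, value in each cell). FOSL1, ATF3 and IER3 are positive with each other, as are FOS, EGR1 and JUNB; JUNB is positive with all 5 of these genes, and JUN is negative with FOSL1, ATF3 and IER3.

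For the 3 genes that passed the F-test, the named genes with the most similar course were looked up among 10850 genes measured on all 12 arrays. They were picked by their r on these same arrays, so that a change like the member's partly follows from the choice. For FOSL1 they were OSMR, the receptor of oncostatin M (r = 0.98), and MT1A, a metallothionein that binds metals (r = 0.97). FOSL1 itself was well above background on 6 of the 12 arrays only, so that both r rest partly on signals near background. OSMR rose by 2.05 on day 2 (adjusted p = 0.018) and by 2.04 on day 7 (0.00499), and had a change of 0.22 on day 14 (0.691). MT1A rose by 1.52 on day 2 (0.0425) and by 1.65 on day 7 (0.0115).
The closest to IER3 were ZNF281, a zinc finger factor (r = 0.97), and CCT7, a chaperonin subunit (r = 0.97). Those closest to FOS were DNAJB11, a chaperone of the endoplasmic reticulum (r = 0.92), and HECTD3, a ubiquitin ligase (r = 0.91). DNAJB11 rose by 1.05 on day 7 (adjusted p = 0.00922), while HECTD3 had a change of 0.28 there (0.191).

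Lists of genes around these 10 were counted in the same fit, by the brightest probe of each gene, and the 10 genes themselves were left out. Over all 19215 gene names tested, 9.73% rose and 8.77% fell on day 7, 1.68% rose on day 2, and 0.0937% were called in either direction on day 14. On day 14 limma called 0 genes in each of the 8 lists. Between the later days 1 gene of the lists was called, NFE2L2, at 0.81 for day 7 against day 2 (adjusted p = 0.049). Of all gene names, 0.515% were called in that comparison. The shares were 0.151% for day 14 against day 7 and 0% for day 14 against day 2.

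Of 32 other immediate early genes tested, 5 rose and 1 fell on day 7, with a median change of 0.53, against 0.01 for all genes. CCN1, a secreted matrix protein and a known early response gene, rose by 2.21 ± 0.40 (adjusted p = 0.0109), and it was the 1 gene of the list called on day 2 (1.90 ± 0.40, adjusted p = 0.0491). GADD45A, a stress and growth arrest gene, rose by 1.48 (0.00974), PLK3, a stress kinase, by 1.61 (0.0314), SGK1, a kinase under hormone control, by 1.39 (0.0301) and CCN2 by 1.36 (0.0247). GADD45B, the relative of GADD45A, was lower on day 7, at a change of -1.40 ± 0.38 (0.0378).

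Among 21 other bZIP genes, the family from which AP-1 partners come, 6 rose and 0 fell on day 7 (median 0.61). JUND, the third JUN protein, rose by 1.07 ± 0.23 (adjusted p = 0.0189) on a day when the brightest JUN probe had a change of -0.69, which was not called. ATF6, a sensor of protein folding stress, rose by 1.68 (0.00357), CEBPB by 0.90 (0.0152), CREM by 1.41 (0.0257), CREB1 by 0.65 (0.0295) and NFE2L2, the regulator of the oxidative stress response, by 0.59 (0.0211). ATF6 was the 1 bZIP gene called on day 2 (1.07, adjusted p = 0.0386).

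In the MYC network 3 of 11 tested genes rose on day 7 and 0 fell (median 0.52). MAX, the obligate partner of MYC, rose by 0.88 ± 0.21 (adjusted p = 0.0264), MYCN by 2.65 ± 0.55 (0.0174) and MLXIP by 1.51 ± 0.24 (0.0082). MYCN and MLXIP were well above background on 2 of the 3 day 0 arrays. Of 17 tested genes described as MYC targets in ribosome making and metabolism, 7 rose and 0 fell (median 0.57). They include SRM, which makes spermidine (2.36, adjusted p = 0.0033), NOLC1 (1.35, 0.00642) and the nucleolar proteins PPAN (0.95, 0.0093), GNL3 (0.95, 0.0136), MYBBP1A (0.83, 0.0249) and NOP56 (0.48, 0.0422). SRM was the 1 gene of this list called on day 2 (1.37, adjusted p = 0.0452). NAB2, a corepressor of EGR1 and 1 of 2 in its list, rose by 1.62 ± 0.32 (0.0142).

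Genes described as AP-1 targets had the largest median of the 8 lists on days 2 and 7 (2.02 and 1.95), and a median of 0.94 on day 14. Of 15 tested, 7 rose and 0 fell on day 7. CD44, the receptor of hyaluronan, rose by 3.04 ± 0.26 (adjusted p = 0.00175), TIMP1, an inhibitor of matrix proteases, by 2.83 ± 0.27 (0.00193), PLAU by 2.64 (0.00714) and its receptor PLAUR by 3.58 (0.0108). The neutrophil attractant CXCL8 rose by 2.87 (0.0166) and VEGFA by 1.35 (0.0176). Called on day 2 were CD44 (2.63), TIMP1 (2.16), CXCL8 (3.26) and SPP1, osteopontin (5.21 ± 1.05, adjusted p = 0.0445). CXCL8 was well above background on 1 of the 3 day 0 arrays, so that the size of its changes is not exact. Some of these genes are also expressed by white blood cells, whose markers are given below.

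Above these genes in the pathway, 1 of 17 kinases and factors rose on day 7, RPS6KA3, a kinase downstream of ERK (1.21 ± 0.15, adjusted p = 0.0037). It was also called on day 2 (0.78, 0.0386). Of 21 ligands and receptors, 4 rose and 0 fell on day 7. They were OXTR, the oxytocin receptor (7.73 ± 0.95, adjusted p = 0.00365), IL1R1, the receptor of interleukin 1 (1.83, 0.00688), ESR1, the oestrogen receptor (1.86, 0.0121), and TNF (1.40, 0.0237).

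**Figure D4:**
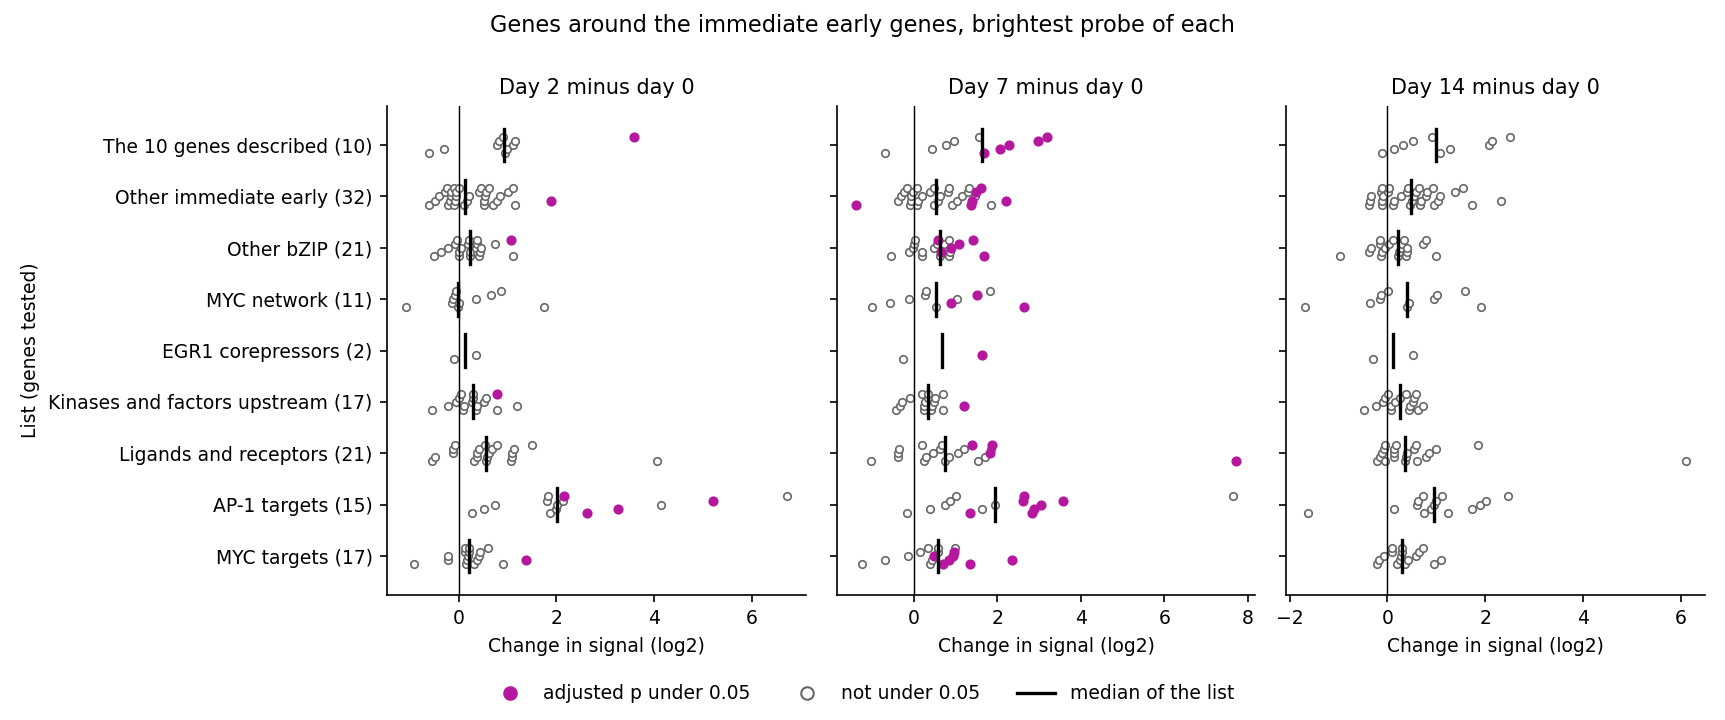
Change in log2 signal from day 0 (horizontal axis) for the 10 genes described and for 8 lists of related genes, 1 point a gene, on days 2, 7 and 14. Filled points had an adjusted p under 0.05 and bars are the medians of the lists; most filled points lie on day 7 and none on day 14.

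In a piece of tissue, more cells of a type and more RNA per cell cannot be told apart, and several marker sums moved with the days. The signals of the markers of each cell type were added on a linear scale in units of each array's 75th percentile. Smooth muscle markers (8 of 8 well above background on all arrays) summed to 181 to 387 on day 7, against 62.2 to 85.8 on day 0. On day 2 the sums were 88.9 to 523, and on day 14 84.5 to 405, with cow 3 the highest on each of the 3 days. Limma called 4 of the 8 higher on day 7.

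Neutrophil markers (5 of 9 tested, 2 of them on all arrays) summed to 3.05 to 8.68 on day 2 and 1.04 to 4.77 on day 7, against 0.394 to 0.98 on day 0, and cow 3 was lowest on days 2 and 7. This sum mostly follows its brightest genes, S100A12 and S100A8. On each of these days 4 of the 5 had positive changes. MPO had mean log2 signals of -5.28, -5.38 and -5.90 on days 0, 2 and 7, and ELANE had -5.69, -5.49 and -5.44. Macrophage markers (9 of 9) summed to 15.6 to 54.0 on day 7, against 13.7 to 16.7 on day 0, with cow 1 the highest and cow 3 the lowest. Of these, 1 of 5 neutrophil markers and 3 of 9 macrophage markers were called higher on day 7.

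Epithelial markers summed to 50.6 to 91.2 on day 7, against 66.7 to 84.1 on day 0, and the day 2 array of cow 3 had the lowest sum of all, 36.4. Stromal markers summed to 265 to 313 on day 7, against 221 to 228 on day 0. Endothelial markers summed to 16.6 to 21.6 on day 7, against 16.5 to 21.6 on day 0. Singly, 5 of the 7 had positive changes on day 7, and limma called 2 higher and 0 lower. Red cell markers (3 of 4 tested, 1 of them on all arrays) summed to 0.941 to 1.36 on day 14, against 0.169 to 0.273 on day 0. Markers of T and NK cells (8 of 9 tested) summed to 6.54 to 15.3 on day 7, against 7.06 to 8.47 on day 0. Of these 8, 5 had positive changes on day 7, and limma called 2 higher and 0 lower. Proliferation markers (11 of 14 tested) summed to 17.0 to 21.4 on day 7, against 27.3 to 29.2 on day 0, but the sum follows the brightest genes: 8 of the 11 had positive changes (median 0.83). Called higher were 3, among them RRM2 (3.79, adjusted p = 0.00416), and called lower were 2, CCNB1 (-2.37, 0.00653) and TYMS (-1.31, 0.00834). B and plasma cell markers (3 of 5 tested) summed to 0.687 to 11.9 on day 7, against 1.16 to 14.7 on day 0. The part of any of these in the changes of the 10 genes was not tested.

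**Figure D5:**
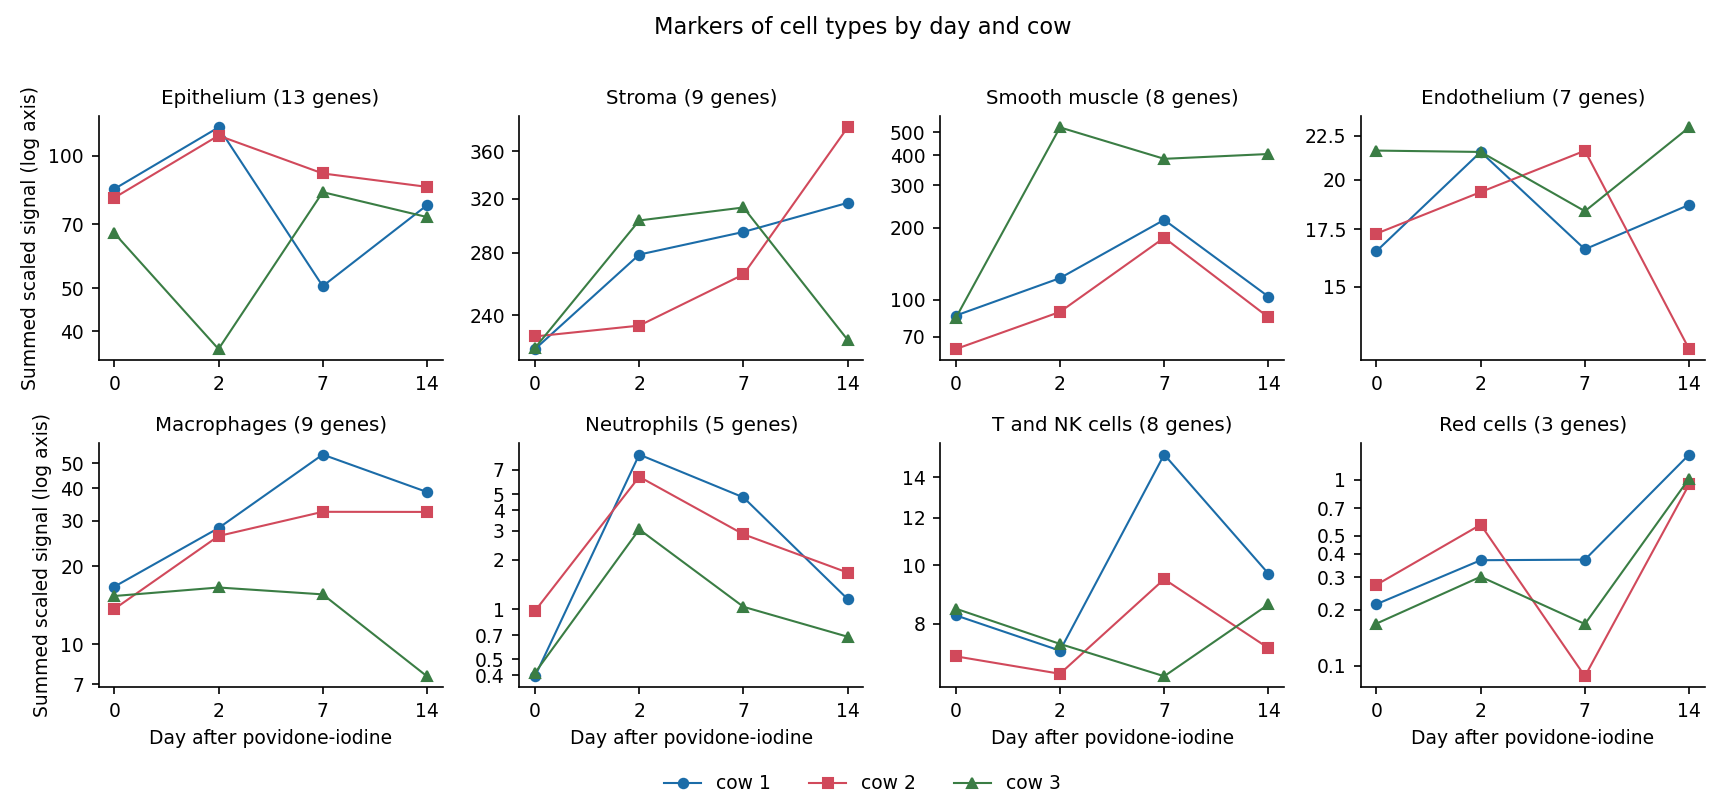
Summed linear signal of the tested markers of 8 cell types (log axis, in units of each array's 75th percentile) against the day, 1 line a cow. Smooth muscle sums are highest in cow 3 on every later day, and neutrophil sums are highest on day 2 in each cow.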

How the data were processed

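Total RNA of 12 endometrial biopsies was measured on one-colour (cyanine-3) Agilent arrays. The deposited scanner files hold intensity values, detrended within each array by Agilent's software Feature Extraction, whose version the file headers give as 11.5.1.1 and the submitters' processing notes as 10.5.1.1. The authors' deposited value table is on a log2 scale, and no source used here tells how it was made. It equals log2 intensity minus the array's 75th percentile and the probe's median, to within 0.0031 (largest median difference of a column). Its column medians ran from -0.07 to 0.08.

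Here the log2 processed intensity minus each array's 75th percentile (825 to 1119 intensity units) was used, without 1417 control spots and 31 probes with outlier flags. Probes well above background on at least 3 of 12 arrays were kept (33539). Days were compared with limma 3.58.1 in R 4.3.3, with cow as a block, 6 residual and 2.33 prior degrees of freedom, and Benjamini-Hochberg adjustment. The pairing comes from the design text. For arrays of 1 cow, the deviations from the day means had a mean correlation of 0.285 (18 pairs, 15 of them above 0.1). As cow and slide cannot be told apart, this correlation is not particular to the cow. The fit was tested on simulated data before use.

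Gene names came from the scanner files and, for lists, from a RefSeq table of assembly ARS-UCD2, used for names only. Every probe of the 10 genes was described. From each list up to 6 called genes a comparison were named, by smallest adjusted p, and for each gene past the F-test the 2 genes with the highest r. The genes and lists were chosen with earlier results of these data known. Alternatives were other scalings, filters, blocks and weights, each cow left out, and the file links.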

Additional observations from a re-analysis of the deposited data

How the results depend on the processing

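Of the alternatives, quantile scaling, no filter on dim probes, the authors' value table (the same signals centred by probe) and leaving out the day 2 array of cow 3 kept every call of the 24 probes against day 0. Day 2 calls (1 in the fit described) were 0 with no replicate block, after normexp and quantile normalisation, among probes well above background on all 12 arrays (which drops FOSL1), under the file links and in a fit of the 2 days alone, 4 with array weights, and 0 to 1 with a cow left out. Of all probes, these fits called 1.27, 2.93, 3.33, 0, 1.18 and 15.2%, in that order, and 0 to 2.46% with a cow left out. Day 7 calls (8) were 9 with no replicate block, 10 with the cow as a random block (with MYC and a FOSL2 probe added), 9 with array weights, 7 on the 12-array filter, 6 in the 2-day fit, 0 under the file links and 0 to 6 with a cow left out. The shares of all probes called were 13.3, 18.2, 31.1, 21.9, 5.68 and 0%, in that order, and 0 to 18.5% with a cow left out. Day 14 calls (0) were 1 with the cow as a random block, after normexp and quantile normalisation and on the 12-array filter, each time FOS, and 5 with array weights. Of all probes, these fits called 1.1, 2.42, 1.05 and 1.05%, in that order. Array weights, whose fit did not converge, gave 9 calls for day 7 against day 2 (30.2% of all probes). They gave 11 for day 14 against day 7 (28%), 15 for day 14 against day 2 (46.2%) and 18 in the F-test (61.4%). Leaving out a cow gave 0 to 1 for day 7 against day 2 (0 to 6.46% of all probes). The F-test (6) gave 1 with no replicate block (4.68% of all probes), 3 without the filter on dim probes (3.31%) and 0 under the file links (0.367%). With a cow left out it gave 0 to 3 (0 to 9.79% of all probes).

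Under the file links the sign turned at 12, 16 and 10 of the 24 probes on days 2, 7 and 14 against day 0. Among called changes it turned at FOSL1 (-1.47 on day 2, -1.28 on day 7), FOS on day 7 (-0.056, -0.37 and -0.51) and JUNB on day 7 (-0.11). The cause was not tested. FOSL1 was not well above background on day 0, so that its fold is not exact.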
